A study of Mus musculus with 6 samples.

Results

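The genes described here are 6 fibroblast growth factor (FGF) ligands, Fgf1, Fgf2, Fgf4, Fgf8, Fgf15 and Fgf17, and the 4 FGF receptor genes, Fgfr1 to Fgfr4. They were taken by gene symbol from the array's annotation, the brightest probe set per gene, and make up 10 of the 19938 genes tested. Each of the 10 had a single probe set, so no probe set was chosen over another, and splice forms of a gene were not separated. Total RNA of mouse induced pluripotent stem cells (iPSCs, fibroblasts reprogrammed to a pluripotent state) had been hybridised to 6 arrays, 3 labelled primed and 3 labelled naive. Primed cells were grown on feeder cells or Matrigel in medium that mouse embryonic fibroblasts had conditioned, with basic FGF, the protein encoded by Fgf2, added at 8 ng/ml. Which primed cultures had feeders is not given. Naive medium was DMEM with 15% FBS, to which LIF, a cytokine that sustains mouse pluripotent cells, was added at 1000 U/ml. In the titles the primed lines come from adult dermal fibroblasts and the naive lines from embryonic fibroblasts, whereas another label gives an embryonic source to every array. If the titles hold, growth condition and donor cell cannot be told apart. The arrays of a group are called biological replicates without a statement of what was repeated, so p-values measure only the spread between these arrays.

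FGFs are secreted proteins that bind receptor tyrosine kinases together with heparan sulfate, a sugar chain on the cell surface and in the matrix. Binding starts the Ras-ERK relay, which switches on both target genes and inhibitors of the pathway itself. In mouse pluripotent cells FGF4 is known as the main FGF the cells make for themselves, and its signal through ERK readies them to leave the naive state. Primed cells are generally said to resemble the epiblast after implantation and are usually kept with added FGF and Activin. The names primed and naive here are those of the labels, and the markers below do not all follow them.

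All values are log2 expression values made with robust multi-array average (RMA), so a difference of 1 is a doubling, and differences are primed minus naive. Tests are limma's moderated test over all genes with Benjamini-Hochberg adjustment and a threshold of 0.05. Over all probe sets the medians of the 6 arrays lay between 7.77 and 7.83. Background was taken from 1190 genes for olfactory or vomeronasal receptors: the cutoff on an array is their 95th percentile there. A gene is called in background in a group when all 3 arrays are under their cutoffs, which lay between 6.96 and 7.02 on primed and between 6.98 and 7.03 on naive arrays. RMA compresses differences of genes near this level, and levels are compared here only within a gene, not between genes. All 8 markers of pluripotent cells lay above background in both groups, but 6 were lower in primed cells and 0 were higher, with a median difference of -0.56. Their mean level lay between 11.40 and 11.44 on primed arrays and between 12.04 and 12.06 on naive arrays. Dppa4, a gene of early pluripotent cells, differed by -1.74, Tdgf1, for the Nodal co-receptor Cripto, by -0.80, and the transcription factor gene Nanog by -0.61. The part of this difference in the FGF results was not tested. Pou5f1, a core pluripotency factor, averaged 11.53 ± 0.07 in primed and 12.59 ± 0.05 in naive cells (SD, n = 3 each).

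Of 6 ligands, Fgf15 and Fgf4 were higher in primed cells, Fgf8 was higher in naive cells, and 3 did not pass. Of 4 receptors, Fgfr2 was higher in naive cells and none was higher in primed cells in this test. Together 4 of 10 members passed, against 44.5% of all genes tested (21.8% with primed higher and 22.7% with naive higher). This share is near that of the array as a whole, so the count itself is no result about the FGF genes. Of all calls, 49% had primed higher, or 35.2% once each array was centred on its median over the genes tested, a step that moved the median of all genes by -0.07. The values of primed and naive arrays did not overlap for 5 of the 10, against 52.9% of all genes. The median difference was 0.10 over the ligands and 0.04 over the receptors, beside -0.001 over all genes tested, and with centring 0.03 and -0.03.

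**Figure D1:**
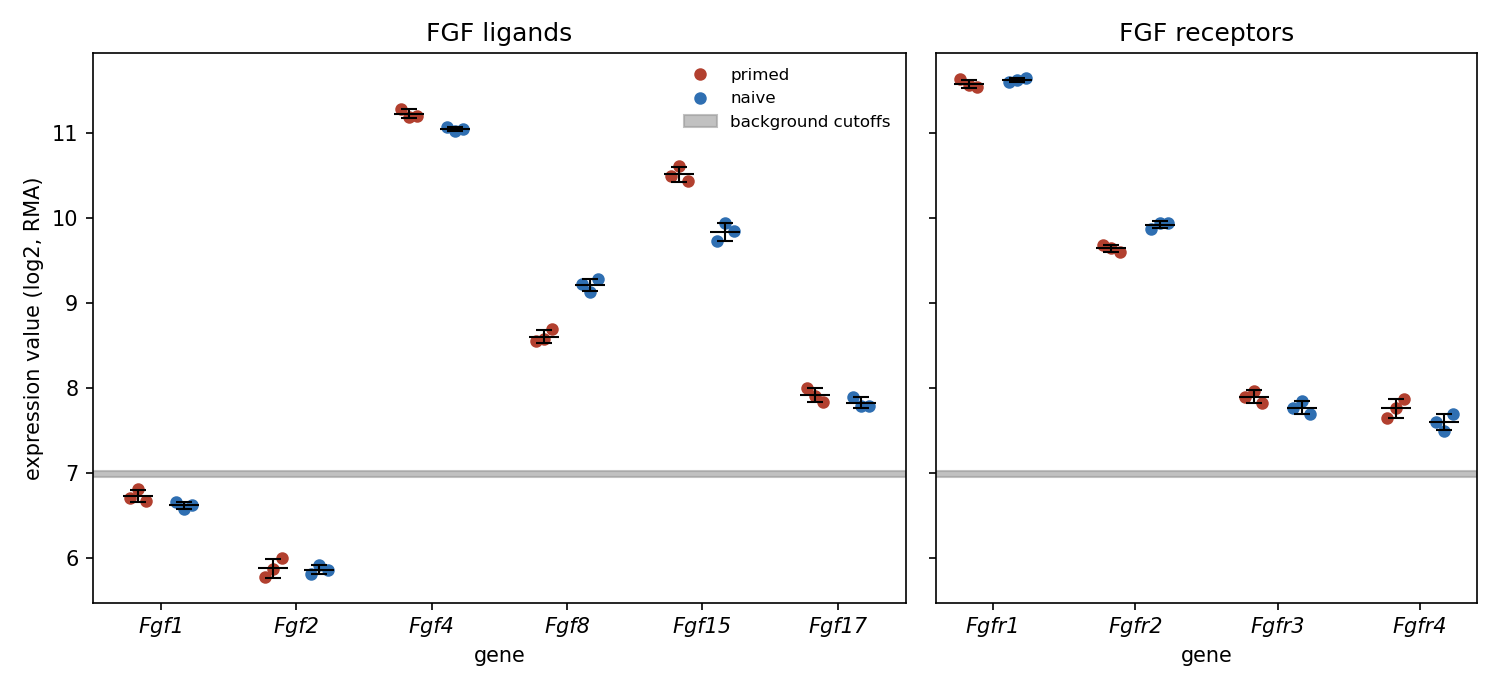
Log2 RMA values of the 6 ligands (left panel) and 4 receptors (right panel) on each array, with primed arrays in red and naive arrays in blue, and bars for the mean and SD of 3 arrays. The grey band spans the background cutoffs of the 6 arrays: Fgf1 and Fgf2 lie under it, Fgf15 is higher in primed cells, and Fgf8 and Fgfr2 are higher in naive cells.

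The 4 members that passed are Fgf15, Fgf8, Fgf4 and Fgfr2. RefSeq's promoter table (GRCm38.p6) has entries for 5 of the 10 members, among them Fgf4 and Fgfr2 but not Fgf15 or Fgf8. The 250 bases upstream of the annotated start are therefore shown for Fgf4 and Fgfr2, the only members that passed and had an entry. These gave the smaller calls, in opposite directions, and their promoters differ in composition. Capitals mark matches on either strand to GGGCGG, the box known to bind Sp1, or to TATANA, the TATA motif. The Fgf4 window is chr7:144861136-144861385 on the plus strand and that of Fgfr2 is chr7:130266809-130267058 on the minus strand.
Fgf4: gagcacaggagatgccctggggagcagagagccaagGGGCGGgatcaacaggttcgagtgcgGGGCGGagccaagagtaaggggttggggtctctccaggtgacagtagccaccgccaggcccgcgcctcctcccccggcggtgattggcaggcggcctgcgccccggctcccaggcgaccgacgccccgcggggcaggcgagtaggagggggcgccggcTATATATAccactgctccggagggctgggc
Fgfr2: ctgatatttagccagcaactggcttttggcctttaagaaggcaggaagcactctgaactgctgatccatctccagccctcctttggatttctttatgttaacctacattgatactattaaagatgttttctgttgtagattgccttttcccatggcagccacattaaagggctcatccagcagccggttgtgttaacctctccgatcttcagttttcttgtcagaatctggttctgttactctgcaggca
The Fgf4 window held 2 matches to GGGCGG and 2 TATANA matches, which overlap each other in a single run shortly before the start. The Fgfr2 window held 0 of either. Of 32851 promoter windows of 250 bases, 32.7% held GGGCGG and 22.6% a TATANA match. The Fgf4 window held 21 CpG dinucleotides and had a GC content of 71.2%, while that of Fgfr2 held 2 CpG and had a GC content of 44%. The median window held 6 CpG, and the median GC content was 52.4%. These matches describe the letters of the windows, and no binding was measured. A link between promoter composition and the primed-naive differences was not tested.

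Among the ligands, Fgf15 had the largest difference in the values as deposited, while with arrays centred Fgf8 had it (0.60 for Fgf15 and -0.67 for Fgf8). Fgf15 encodes the mouse counterpart of human FGF19, a hormone of the gut that restrains bile acid synthesis in the adult liver and that is also made in the embryonic brain. Fgf15 read 10.49, 10.61 and 10.43 on the primed arrays, against 9.73, 9.94 and 9.84 on the naive arrays. All 3 primed values lay above all 3 naive values. The difference was 0.67 (SE 0.07, adjusted p = 1e-05), a level 1.60-fold that of naive cells, with a 95% interval of 0.52 to 0.83. Of all genes tested, 8.32% had a larger absolute difference. Of 6 neuroectoderm markers, 5 were higher in primed cells too. The sixth, Nes, had a difference of the opposite sign that missed the threshold (-0.21, adjusted p = 0.052) and passed with arrays centred (-0.29, adjusted p = 0.014). Their mean level lay between 9.51 and 9.66 on primed arrays and between 8.78 and 8.86 on naive arrays. Pax6, which encodes a regulator of eye and forebrain development, differed by 2.29 and was in background in naive cells. Fabp7, a fatty acid binding protein gene of neural progenitors, differed by 0.87, Map2, for a neuronal microtubule protein, by 0.82, and Sox1, a neural plate factor, by 0.54. The part of neural-type cells in the Fgf15 result was not tested. In such bulk samples, fewer cells of a type and less RNA per cell cannot be told apart.

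Fgf8, which in the mouse embryo is needed for cells to leave the primitive streak, was the ligand lower in primed cells. It read 8.55, 8.57 and 8.69 on the primed arrays, against 9.22, 9.13 and 9.28 on the naive arrays. The highest primed value stayed under the lowest naive value. The difference was -0.60 (SE 0.06, adjusted p = 9.1e-06), with a 95% interval of -0.74 to -0.47, so that naive cells had 1.52-fold the level of primed cells. Of all genes tested, 10.3% had a larger absolute difference. Of 7 markers of primitive streak and mesoderm, 1 was higher in primed cells and 3 were higher in naive cells, while Mesp1 and Evx1 lay in background in both groups. Over all genes tested, 21.8% were higher in primed cells and 22.7% in naive cells. The mean level of the 7 lay between 7.45 and 7.47 on primed arrays and between 8.00 and 8.06 on naive arrays. Their median difference was only -0.08, as the means are weighted by the largest differences, those of Eomes and Wnt3. Eomes, a T-box factor of the streak and of trophoblast, differed by -2.20, Wnt3, a signal that induces the streak, by -1.79, and Tbx6, for a mesoderm factor, by 0.29. Mixl1 differed by -0.21, a call lost without primed replicate 2 or 3 or naive replicate 1 or 3 (adjusted p between 0.056 and 0.093). The part of streak-type cells in the Fgf8 result was not tested.

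Fgf17 belongs to the same subfamily as Fgf8 and shares its receptors, and it did not pass the threshold. It read 8.00, 7.91 and 7.84 on primed arrays and 7.90, 7.79 and 7.79 on naive arrays. The groups overlapped. The difference was 0.09 (SE 0.06, adjusted p = 0.26), and its 95% interval of -0.04 to 0.22 lies wholly above that of Fgf8.

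Fgf4, a known target of Pou5f1 and Sox2, was well above background in both groups. It read 11.28, 11.18 and 11.20 on primed arrays, against 11.07, 11.02 and 11.04 on naive arrays. The groups did not overlap, but the difference was small, 0.17 (SE 0.05, adjusted p = 0.019), or 1.13-fold, with a 95% interval of 0.06 to 0.29. Of all genes tested, 43.1% differed by more. With quantile normalization the Fgf4 difference was larger, 0.24 (adjusted p = 0.0013). When each array was centred on its median, Fgf4 lost its call (0.10, adjusted p = 0.11). It also lost it without primed replicate 1 (adjusted p = 0.052), naive replicate 2 (adjusted p = 0.056) or naive replicate 3 (adjusted p = 0.056). Pou5f1 (-1.06) and Sox2 (-0.52) themselves were lower in primed cells, both past the threshold.

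Fgf1 and Fgf2, the classical acidic and basic FGFs, which lack a signal peptide, lay in background on all 6 arrays. Fgf2 read 5.78, 5.87 and 6 on primed arrays and 5.82, 5.92 and 5.86 on naive arrays, a difference of 0.01 with a 95% interval of -0.13 to 0.15. The basic FGF in primed medium is protein, which an RNA array does not measure. Fgf1 read 6.71, 6.81 and 6.67 on primed arrays and 6.66, 6.58 and 6.63 on naive arrays. Its groups just failed to overlap, but the difference of 0.11 did not pass (SE 0.06, adjusted p = 0.16). A gene in background cannot be read as unchanged.

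**Figure D2:**
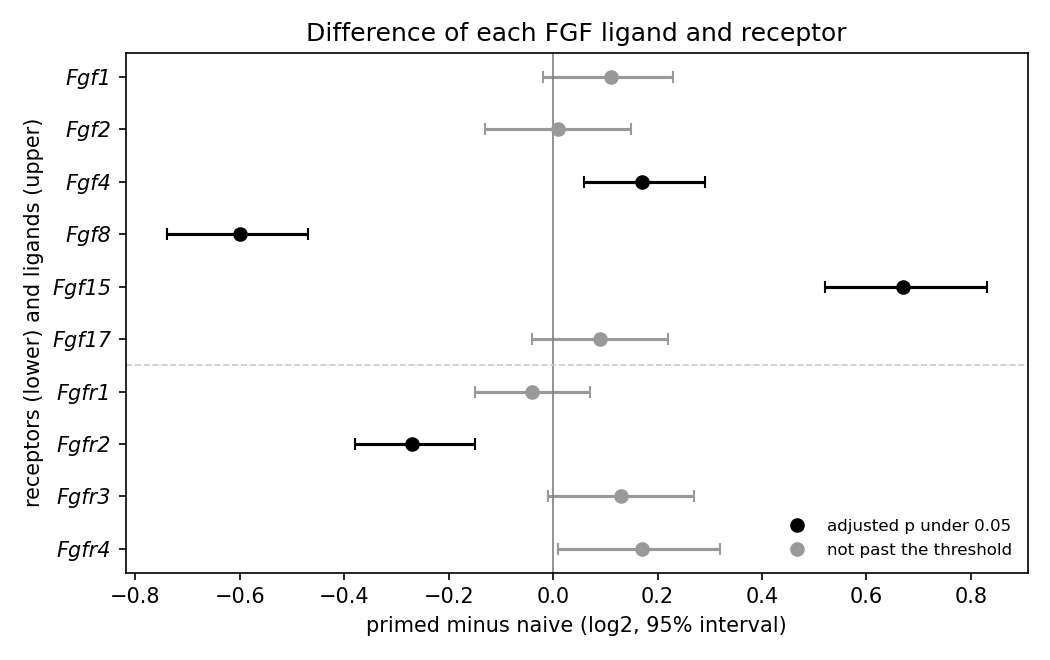
Primed minus naive difference of each gene on the log2 scale (points) with its 95% interval from limma (bars), ligands above the dashed line and receptors below it. Black marks an adjusted p under 0.05: Fgf15 and Fgf4 lie to the right of 0, Fgf8 and Fgfr2 to the left, and the intervals of Fgf1, Fgf2, Fgf17, Fgfr1 and Fgfr3 include 0.

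Fgfr1, known as the main FGF receptor of mouse embryonic stem cells and the epiblast, gave close values in the groups. It read 11.63, 11.56 and 11.54 on primed arrays and 11.59, 11.62 and 11.64 on naive arrays. The values overlapped, and the difference was -0.04 (SE 0.05, adjusted p = 0.58). The 95% interval of -0.15 to 0.07 covers only the spread between these arrays in the values as deposited. Scaling moved the Fgfr1 difference to -0.11 with arrays centred and to 0.03 with quantile normalization. It passed in neither setting.

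Fgfr2, in the early mouse embryo a receptor of trophectoderm and primitive endoderm, was lower in primed cells. It read 9.68, 9.65 and 9.60 on primed arrays, against 9.87, 9.94 and 9.94 on naive arrays. The groups did not overlap. The difference was -0.27 (SE 0.05, adjusted p = 0.0013), with a 95% interval of -0.38 to -0.15, so that naive cells had 1.21-fold the level of primed cells. Of all genes tested, 30.1% differed by more. All 8 trophoblast markers were lower in primed cells too, among them Eomes (-2.20), Krt7, a keratin gene (-1.92), and the transcription factor genes Gata3 (-1.28) and Ascl2 (-0.97). Their mean level lay between 7.87 and 7.91 on primed arrays and between 8.90 and 8.98 on naive arrays, and of the 8 Elf5 lay in background in primed cells. Of 6 primitive endoderm markers, Dab2 passed (-0.63, or -0.30 as the mean over its probe sets) and 5 did not, with Gata4 at 0.15, Sox7 at 0.11 and Sox17 at -0.10. Their mean level lay between 7.59 and 7.64 on primed and between 7.66 and 7.75 on naive arrays, with Sox17 in background in both groups and Sox7 in naive cells. The part of these cell types in the Fgfr2 result was not tested.

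Fgfr3 and Fgfr4 had somewhat higher means in primed cells without passing. Fgfr3 read 7.90, 7.97 and 7.82 on primed arrays and 7.77, 7.85 and 7.69 on naive arrays, and the groups overlapped. Its difference was 0.13 (SE 0.06, adjusted p = 0.11). Fgfr4, a receptor that FGF15 uses in the mouse liver, read 7.65, 7.77 and 7.87 on primed arrays and 7.60, 7.50 and 7.69 on naive arrays. These groups overlapped too. Its difference was 0.17 (SE 0.07, adjusted p = 0.079), with a 95% interval of 0.01 to 0.32. Fgfr4 passed without primed replicate 1 (0.22, adjusted p = 0.027) or without naive replicate 3 (0.21, adjusted p = 0.049). It also passed with array weights (adjusted p = 0.046) and after dim genes were removed (adjusted p = 0.045).

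Fgf3, Fgf4 and Fgf15 lie next to each other on mouse chromosome 7. Fgf4 and Fgf15 were both higher in primed cells, whereas Fgf3 was lower. The calls of Fgf3 and Fgf4 did not hold in every setting, and Fgf3 lay close to the background cutoffs. Fgf3, which encodes another secreted FGF, passed with a small negative difference, 7.24 ± 0.01 in primed and 7.41 ± 0.06 in naive cells (SD, n = 3 each; difference -0.17, adjusted p = 0.021). Its call was lost without primed replicate 3 (adjusted p = 0.055), naive replicate 1 (adjusted p = 0.052) or naive replicate 2 (adjusted p = 0.074). Of the genes that follow on the Fgf15 side, LTO1 differed by -0.34 and Ccnd1, the cyclin D1 gene, by -0.12 without passing. On the Fgf3 side, Ano1, a chloride channel gene, was higher in primed cells by 0.50, while Fadd (-0.02) and Ppfia1 (0.02) did not pass. Between Ano1 and Fgf15, Fgf3 thus lay below 0 and Fgf4 above it.

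**Figure D3:**
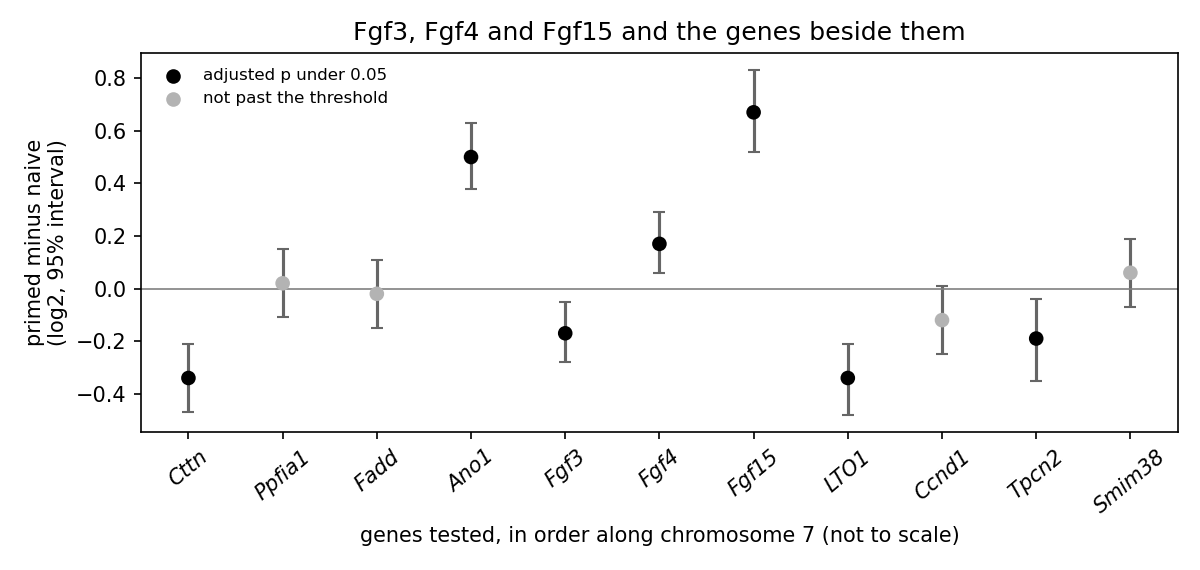
Primed minus naive difference on the log2 scale (points, black where the adjusted p was under 0.05) with 95% intervals for 11 genes tested, in their order along chromosome 7, evenly spaced and not to scale. Fgf15 (0.67) stands between Fgf4 (0.17) and LTO1 (-0.34).

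Fgf17 lies on chromosome 14 between Shisa2 and Tmtc4, a stretch picked out in earlier results of these data for its higher values in primed cells. The other 448 genes of the chromosome had a median difference of -0.01. Over the 254 genes tested in the stretch the median was 0.31, a higher value that follows from how the stretch was picked. Fgf17 (0.09) lay under that median. The pathway genes Extl3 (0.72), Gpc6 (2.05) and Spry2 (-0.15) lie in the same stretch.

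The genes whose array-to-array pattern was nearest to that of Fgf15 were Lclat1, Mpdz and Sbk1. The measure was the root-mean-square distance over the 6 arrays between values centred on each gene's mean, among 14572 other genes above background in at least 1 group. It was 0.032, 0.036 and 0.043 log2 units for these genes in that order. Nearest to Fgfr2, the receptor that differed most, were Snord49a (0.014), Akap8 (0.014) and Nasp (0.016). The 3 genes near Fgf15 differed by 0.70, 0.70 and 0.66, and the 3 near Fgfr2 by -0.27, -0.25 and -0.26. Genes close in this measure have close differences by construction, so this likeness is no separate result.

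The other FGF genes included larger differences than any of the 10. Of 12 other secreted FGFs, 2 were higher in primed cells and 3 in naive cells, or 1 and 5 with arrays centred. Fgf23, among the 3, passed narrowly (-0.14, adjusted p = 0.048). Its call was lost on leaving out any 1 array (adjusted p between 0.055 and 0.18). Fgf6, Fgf7, Fgf10 and Fgf16 lay in background in both groups. Fgf5, a marker of the epiblast after implantation, averaged 8.90 ± 0.03 in primed and 10.61 ± 0.09 in naive cells (SD, n = 3 each). Naive cells thus had 3.27-fold the level, a direction that runs against the group labels for such a marker. Fgf9, a ligand of embryonic mesenchyme and gonad, was higher in primed cells by 0.51. Fgf21, a liver hormone, differed by 0.20 with overlapping groups (adjusted p = 0.035). Its call was lost with array centring (0.13, adjusted p = 0.17), with the replicate block (adjusted p = 0.063), with all probe sets fitted together (adjusted p = 0.095) and without primed replicate 2 or 3 or naive replicate 2 or 3 (adjusted p between 0.093 and 0.14). The intracellular FGF homologous factors, which are not secreted and bind sodium channels, gave 2 of 4 higher in primed cells and none higher in naive cells. Fgf11 averaged 10.06 ± 0.01 in primed and 8.68 ± 0.01 in naive cells (SD, n = 3 each), a 2.61-fold higher level in primed cells. Fgf14 differed by 0.97 and was in background in naive cells. Fgf13 differed by 0.06 and Fgf12 by 0.04, and neither passed.

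Co-receptors and FGF binding proteins gave 3 of 10 higher in primed cells and 3 in naive cells. Fgfbp1, for a carrier that frees FGFs from the matrix, averaged 9.94 ± 0.07 in primed and 11.27 ± 0.04 in naive cells (SD, n = 3 each), so that naive cells had 2.53-fold the level. Ncam1, for a neural cell adhesion molecule that can bind FGF receptors, differed by 0.59, Fgfbp3 by 0.32 and Fgfrl1, for a receptor without a kinase domain, by 0.32. The Klotho genes Kl and Klb, whose proteins are the co-receptors of FGF15, FGF21 and FGF23 in the adult mouse, lay in background in both groups. Genes of heparan sulfate and its carriers were divided evenly, 6 of 20 higher in primed cells and 6 in naive cells. Gpc6, for a glypican, rose 4.15-fold in primed cells, Gpc3, another glypican, differed by 0.88 and the exostosin-like gene Extl3 by 0.72. The syndecan gene Sdc4 differed by -0.71. The medians of both lists, 0.07 and 0.06, were no longer above 0 once arrays were centred (0.00 and -0.01). With quantile normalization they were 0.06 and 0.04, and 8 heparan sulfate genes were higher in primed cells and 6 in naive cells.

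Among adaptors and members of the Ras-ERK relay, 3 of 16 were higher in primed cells and 7 in naive cells, with a median of -0.12. These counts were 2 and 10 with arrays centred (median -0.19) and 3 and 5 with quantile normalization (median -0.05). Plcg1, for a phospholipase that FGF receptors bind directly, was 2.23-fold higher in primed cells. Sos2, for a Ras activator, differed by 0.75, Crk by -0.42 and the adaptor gene Grb2 by -0.26. Feedback inhibitors and targets of ERK gave 5 of 19 higher in primed cells and 10 in naive cells, with a median of -0.20. These counts were 5 and 13 with arrays centred and 5 and 12 with quantile normalization. Spry4 differed by -1.48, Phlda1 by -0.97, Etv5 by -0.91 and Dusp5 by -0.91. The 5 higher in primed cells were Dusp6 (0.48), Dusp7 (0.42), Egr1 (0.37), Fos (0.32) and Etv1 (0.24). The splicing regulators gave 0 of 4 higher in primed cells and 2 in naive cells. Esrp1 (-0.30) and Esrp2 (-0.67) favour the epithelial splice forms of the receptors, and Rbfox2 (-0.13) and Ptbp1 (-0.10), which also act on these exons, did not pass. Both passed with arrays centred (-0.20 and -0.17), whereas quantile normalization gave -0.08 and 0.00, and the mean over probe sets gave Ptbp1 a difference of 0.04. The receptor splice forms themselves were not resolved. Over the 85 measured genes of these 7 lists, 61.2% passed, 21 higher in primed cells and 31 in naive cells, or 19 and 43 with arrays centred. The share over all genes was 44.5%, but 5365 of these lay in background in both groups, against 8 of the 85. With dim genes removed, 69.6% of 69 pathway genes passed, against 65.8% of all genes left, so the shares were close.

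**Figure D4:**
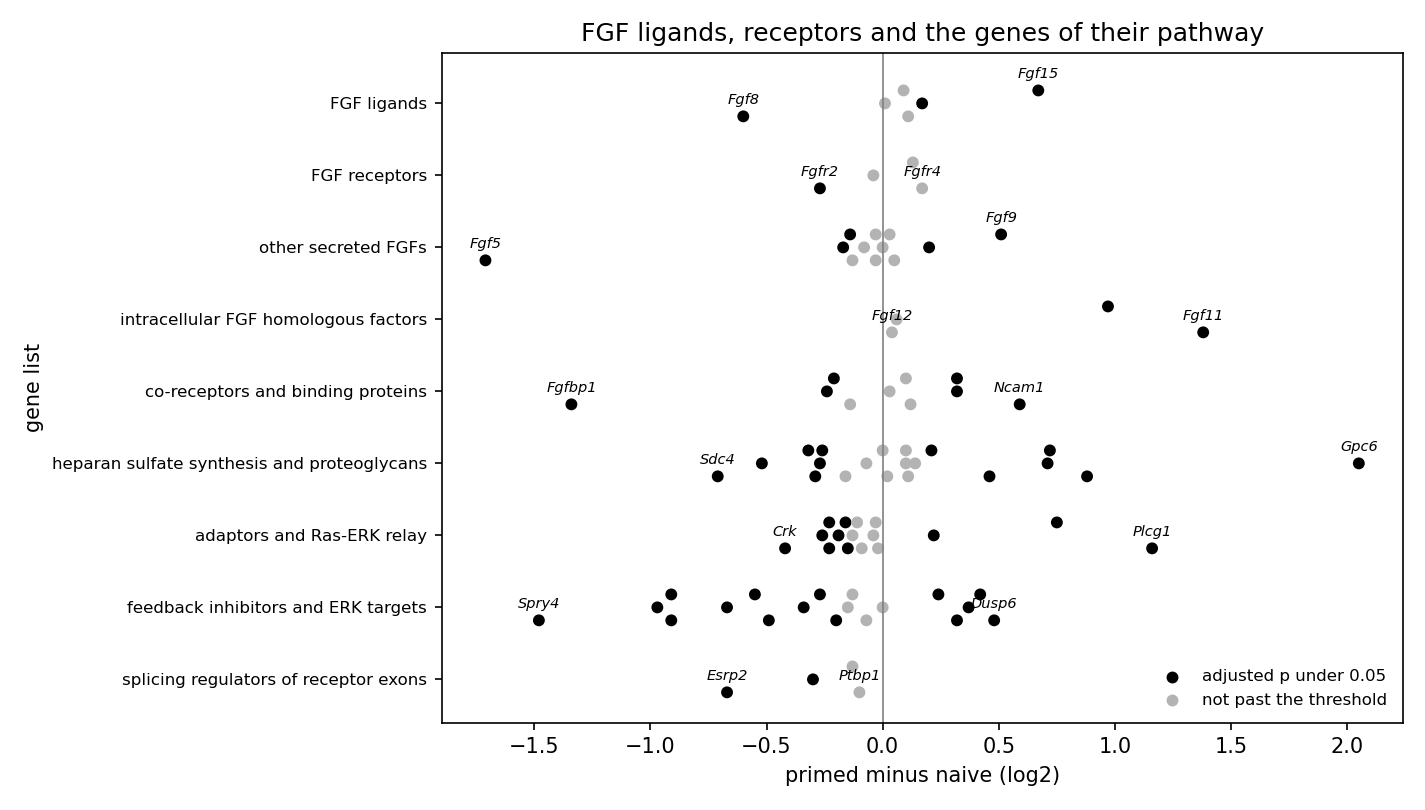
Primed minus naive difference on the log2 scale of every measured ligand, receptor and pathway gene (points, spread vertically within a list for visibility; black where the adjusted p was under 0.05), with the lowest and highest gene of each list named. Receptors lie between -0.27 and 0.17, whereas the pathway lists reach from -1.71 (Fgf5) to 2.05 (Gpc6).

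Markers of fibroblasts, the cells of feeder layers and of origin, went both ways, with 2 of 13 higher in primed cells and 5 in naive cells. Their mean level lay between 7.30 and 7.35 on primed and between 7.23 and 7.28 on naive arrays. The median difference went the other way, at -0.10, as the mean is weighted by the large difference of Dcn. Dcn, for a matrix proteoglycan, differed by 2.89, Col1a1 by -0.76, S100a4 by -0.37 and Pdgfrb by 0.37, while Lum, Fap, Postn, Prrx1 and S100a4 lay in background in both groups. Fgf7 and Fgf10, ligands typical of mesenchymal cells, were in background too. The part of fibroblast RNA in the FGF results was not tested.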

How the data were processed

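Expression was measured on 6 arrays, 3 primed and 3 naive, grouped by the cell type label. Per the submitters' processing notes, the deposited log2 values were made with RMA in Partek 6.6; its options and any genome build were not found in the labels. RMA pulls dim genes together, so small values hold little information on size. Precision is limited by 3 arrays per group.

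Gene names came from the platform annotation held by GEO, where 21789 of 35556 probe sets carry 1 symbol. The 1621 with several symbols and the 12146 unnamed here were not used for genes. By gene ID, 21698 matched RefSeq (GRCm38.p6), which gave symbols and gene order. The brightest probe set stood for each of 19938 genes. All genes were fitted with limma 3.58.1 in R 4.3.3 (lmFit, eBayes, two-sided, no covariates, no further normalization); p-values were adjusted by Benjamini-Hochberg over all of them. The fit was tested on simulated data. Promoter windows came from RefSeq.

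The rule for named genes took the 10 members, the 4 genes of each list with the largest absolute difference, and the 3 genes nearest in pattern to the ligand and the receptor that differed most. Genes in background are named to account for them, and some list genes are not reported here. Chromosome neighbours, Sox2, Nes, Spry2, Dusp6, Dusp7, Egr1, Fos and Etv1 were named after their values were seen. So were Fgf23, Crkl, Nras, Il17rd, Frs3, Spry1 and Twist2. Members and lists were chosen with earlier results of these data known. Alternatives covered scaling, a filter on dim genes, the choice of probe sets, the variance prior, array weights, thresholds, a replicate block and leaving out each array.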

Additional observations from a re-analysis of the deposited data

How the results depend on the processing

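No member's direction was reversed in a call under the alternatives tried, and Fgf15 and Fgf8 passed in all of them. Centring each array on its median shifted the median of all genes by -0.07 and gave 3439 calls with primed higher and 6325 with naive higher, beside 4347 and 4529 without it; ligands higher in primed then numbered 1. With an adjusted p under 0.01, 1 ligand was higher in primed. With a difference of at least 0.5 also required, 1480 genes had primed higher and 1285 had naive higher, among them 1 ligand higher in primed, 0 receptors higher in naive, and 10 and 11 pathway genes. With Holm adjustment the counts were 1290 and 1133 genes, 1 ligand higher in primed, 0 receptors higher in naive, and 10 and 12 pathway genes. Array weights, and a filter on dim genes that left 11963 genes and 8 of the members (not Fgf1 or Fgf2), each gave 1 receptor higher in primed, Fgfr4. Leaving out each array gave 3926 to 4169 genes higher in primed and 4007 to 4455 higher in naive. Ligands higher in primed numbered 1 to 2 and receptors higher in primed 0 to 1. The cause of these shifts was not tested, save that stricter thresholds call fewer genes by construction.

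With the replicate number as a block, 4172 calls had primed higher and 4344 had naive higher. No member's call changed (Fgf4 adjusted p = 0.031), while Fgf21 (adjusted p = 0.063) and Tpcn2 (adjusted p = 0.069) lost theirs. Among further list genes, Fgf23 (adjusted p = 0.075), Crkl (adjusted p = 0.073) and Nras (adjusted p = 0.059) lost theirs too. Same-numbered arrays did not deviate together (r of -0.109, 0.002 and -0.021 across genes). Arrays with different numbers gave r between -0.092 and 0.095, a similar size. These values cannot tell whether the samples were paired, as the meaning of the numbers is not given. Of 59 other genes named by rule or by position, 48 passed; Fgf3, Fgf21, Mixl1 and Tpcn2 lost their calls under some scaling, fitting or leave-out setting, and no call was reversed. Ccnd1, Gata4, Ptbp1, Rbfox2 and Sox17 passed under some, as did Nes, Spry2, Prrx1 and Fgf10 among further list genes. Differences of dim genes are limited by background, in which Fgf1 and Fgf2 lay.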
